A study of Saccharomyces cerevisiae with 2 samples.

Results

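Convergent gaps are the stretches of DNA between neighbouring genes that are transcribed towards each other, so that both genes end at the gap. The members described here were the gaps of 50 bp or more between nuclear protein-coding neighbours in which the left gene lies on the Watson strand (W in the systematic name) and the right gene on the Crick strand (C), with no noncoding gene in the gap. ORFs over 5000 bp without a gene name of their own, which have the lengths of Ty retrotransposon frames, were not taken as genes, and gaps that held such a left-out ORF were not members. Of 1539 pairs of convergent neighbours, 1396 met the rule. A further 27 pairs overlapped or abutted, 36 had a gap under 50 bp, and 80 had a gap that held a noncoding gene or a left-out ORF. The 1396 members stand among 5406 gaps of the same definition, of which 2605 were in tandem (both genes on the same strand) and 1405 were divergent (genes transcribed away from each other).

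The measurement was DRIP-seq of asynchronous budding yeast (Saccharomyces cerevisiae) grown in YPAD, a rich medium, at 30 °C to mid-log phase. DNA was cut with restriction enzymes, immunoprecipitated with the S9.6 antibody, which recognises RNA:DNA hybrids, and amplified over the whole genome before sequencing. The samples were 1 S9.6 immunoprecipitate and 1 input, both from strain WRBb-9D, and the values below come from the peak list of the immunoprecipitate, which held 1687 nuclear peaks. The strain is called wild type in the titles, but it was MATa with a mutant leu2 allele and the alleles trp1-1, can1-100, ade2-1 and his3-11,15, lacked BAR1 (bar1-delta), carried a FLAG tag and KAN marker at RRM3 (RRM3::FLAG::KAN), and held the construct ura3::URA3/GPD-Tk(7x). No value has a replicate, read counts and depth are unknown, and no p-value is given. Intervals on shares of gaps are exact (Clopper-Pearson) 95% intervals and cover counting error only.

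An R loop forms when nascent RNA pairs with its template DNA strand and leaves the other strand single. Where genes converge, the gap holds the 3′ ends of both transcripts and the signals at which RNA polymerase II stops, and polymerases that read past those signals approach each other. Convergent sites in budding yeast are also known as places where cohesin, the ring complex that holds sister chromatids together, gathers.

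Most convergent gaps had no peak. A peak touched at least 1 base of 144 of the 1396 gaps (10.3%, interval 8.77 to 12), where 11.2% of all 5406 gaps were touched. At least 50% of the gap lay inside peaks in 82 (5.87%, interval 4.70 to 7.24), against 4.70% of all gaps, and the whole gap lay inside peaks in 31 (2.22%, interval 1.51 to 3.14), against 1.65% of all gaps. These shares are near those of gaps in general before gap length, on which they depend, is taken into account. Of the 408258 bases in convergent gaps, 6.0% were inside peaks, beside 5.32% in tandem gaps, 6.34% in divergent gaps, 5.37% in protein-coding genes without the left-out ORFs and 7.37% in the nuclear genome as a whole. The genome value included the 42 left-out ORFs, whose bases were inside peaks at 71.0%.

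The content of the gap separated convergent gaps far more than orientation separated the gaps without a noncoding gene or left-out ORF. The 80 convergent gaps that held one, which are not members, had 53.5% of their bases inside peaks. Tandem and divergent gaps that held one had 32.0% and 21.7%. The 80 were 5.42% of all convergent gaps of 50 bp or more but contained 81.5% of the peak bases in them. Of the 107750 peak bases in the 80 gaps, 83381 lay in the 20 that held a left-out ORF. With these 80 put back, 21.7% of convergent bases were inside peaks, 2.43 times the share of divergent gaps and 1.94 times that of tandem gaps treated in the same way. Without them the ratios were 0.947 and 1.13. The order against divergent gaps turned in 7 of 10 alternative settings (ratios of 1.01 to 2.43), and the order against tandem gaps in 1 (0.993). Among the members themselves, the peak over 5 of the 144 touched gaps (3.47%) also reached a noncoding gene or left-out ORF outside the gap. The same held for 5.5% of touched tandem gaps and 11.3% of touched divergent gaps.

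Gap length set convergent gaps apart from divergent ones more than from tandem ones. Convergent gaps were short, with a median of 224 bp, against 386 bp for tandem and 487 bp for divergent gaps. Across the 6 length classes, the share of convergent bases inside peaks stayed between 5.22% (33 gaps of 1000 bp or more) and 6.59% (361 gaps of 200 to under 300 bp), with 6.30% in the 144 shortest gaps of 50 to under 100 bp. Tandem gaps were as even, from 4.15% to 5.47%. Divergent gaps went from 0% in 13 gaps of 50 to under 100 bp through 3.52% at 200 to under 300 bp to 9.20% at 1000 bp or more. At 200 to under 300 bp, 6.37% of convergent gaps had at least 50% of their length inside peaks (23 of 361, interval 4.08 to 9.41), beside 5.32% of tandem (32 of 602, interval 3.66 to 7.42) and 2.97% of divergent gaps (9 of 303, interval 1.37 to 5.56), and these intervals overlap. Reweighted to the length classes of convergent gaps, the share of gaps covered to at least 50% was 4.91% for tandem and 2.48% for divergent gaps, beside 5.87% for convergent ones. Leaving out the class of 50 to under 100 bp, in which divergent gaps were few, gave 5.06%, 2.77% and 5.83%. Divergent gaps were also few at 100 to under 200 bp, 84 beside 463 convergent ones. Of the 84, 2 were covered to at least 50% (2.38%, interval 0.29 to 8.34). The reweighted shares lean on such small counts and have no interval. Reweighted over all classes, the touched share was 9.15% for tandem and 6.0% for divergent gaps, beside 10.3% for convergent ones. The share of bases inside peaks was 5.25% and 4.25%, beside 6.0%. The difference between the kinds of gap was not tested, since there is 1 library.

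**Figure D1:**
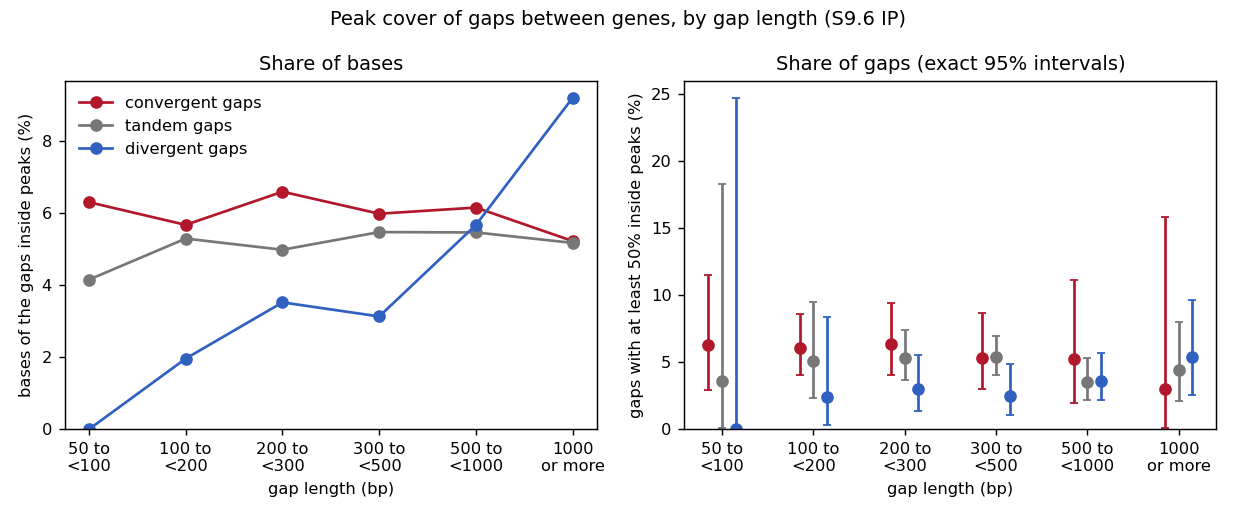
Left, share of bases inside peaks (percent) by gap length (bp) for convergent, tandem and divergent gaps; right, share of gaps with at least 50% of their length inside peaks (percent), with exact 95% intervals as bars. The convergent points lie between 5.22% and 6.59% of bases in every length class, while the divergent points run from 0% to 9.20%.

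The share of touched gaps was higher in the longest class than in the shortest: 7.64% of gaps of 50 to under 100 bp and 18.2% of those of 1000 bp or more were touched (11 of 144 and 6 of 33). Whole cover ran the other way. It was reached in 7 of 144 gaps of 50 to under 100 bp and 14 of 463 gaps of 100 to under 200 bp, and in none of the 147 gaps of 500 bp or more. No nuclear peak was shorter than 200 bp, so a single peak can span any gap of the first 2 classes. At the 50 bp limit, neither of the 2 gaps of 49 bp just outside it (LNP1-EGD2 and RMP1-SPE4) nor any of the 4 gaps of 50 bp just inside it (EMC3-ADD66, ERG9-CTF8, SMU2-POT1 and SMX2-GNA1) had a peak base.

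Around the centres of convergent gaps, peak cover had a low, broad maximum. Of positions from 200 bp left of the centre up to the centre, 6.39% were inside peaks, and of those up to 200 bp to its right, 5.62%. From 500 to 1000 bp away the shares were 4.50% on the left and 5.22% on the right, where most positions lie inside genes. Around the centres of divergent gaps the same inner windows held 4.46% and 5.24%. Tandem gaps held 5.69% and 5.15% there, beside 5.15% and 5.01% from 500 to 1000 bp away, so a higher share left of the centre was seen in them too. Seen from the end of each gene, oriented with transcription, the 200 bp past 2792 convergent gene ends were inside peaks at 5.93% and the last 200 bp of the genes at 5.32%. Past 2605 gene ends that face the start of a tandem neighbour, the values were 5.55% and 5.24%. Both ends of each convergent gap were counted, so windows past them could share bases. In convergent gaps under 200 bp, the window ran on into the opposite gene. Each tandem gap gave a single end. The difference between these kinds of gene end was not tested, and each window draws on the same few peaks as its neighbours.

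**Figure D2:**
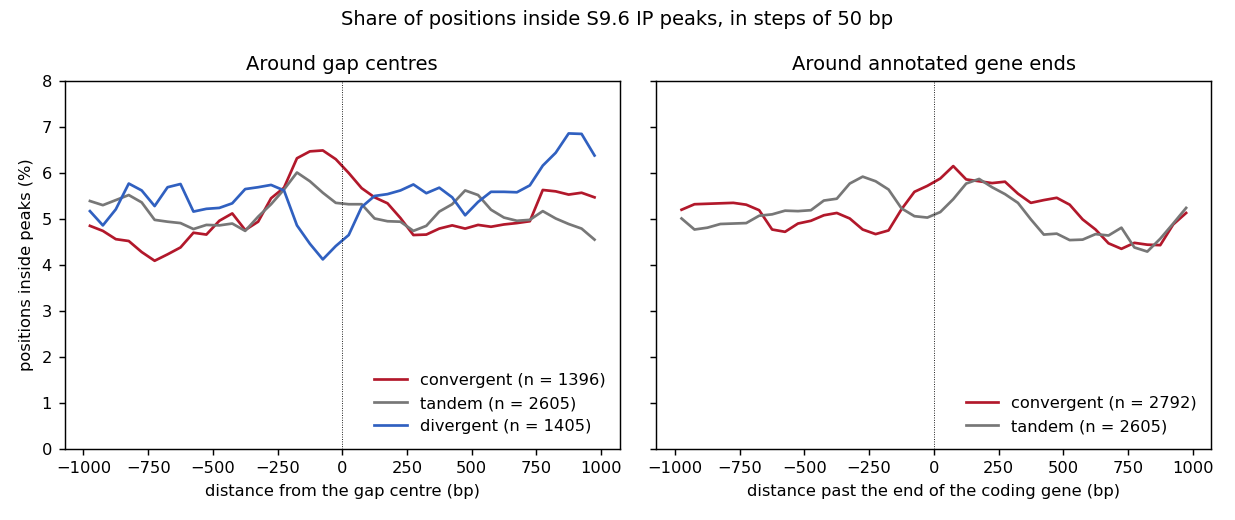
Share of positions inside peaks (percent) in steps of 50 bp, left around the centres of convergent, tandem and divergent gaps and right around annotated gene ends, with positive distances past the end of the gene. All lines lie between 4.09% and 6.86%, and the convergent line around gap centres has its own maximum, 6.49%, just left of the centre.

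Peaks at convergent gaps commonly ran on into the genes. In 56 of the 144 touched gaps the peaks reached into the left gene only, in 44 into the right gene only, and in 32 into both genes. In 12 gaps (8.33%, interval 4.38 to 14.1) every peak stayed within the gap, compared with 22% of 291 touched tandem gaps and 28.6% of 168 touched divergent gaps, which are longer. The summit of the highest-scoring peak lay in the gap itself in 62 (43.1%, interval 34.8 to 51.6), in the left gene in 44, in the right gene in 31 and beyond both genes in 7. Per kb, convergent gaps held 0.159 summits (65 in all), beside 0.14 in the nuclear genome as a whole. Tandem gaps held 0.128, divergent gaps 0.137 and protein-coding genes 0.118, and these differences were not tested. The median distance from gap centre to summit was 166 bp. All but 3 of the touched gaps had a single peak, and no peak touched more than 1 member.

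Cover of the gap was in most cases not cover of a whole gene. In 95 of the 144 touched gaps neither flanking gene was inside peaks to 50% of its length. In 25 the left gene only, in 17 the right gene only and in 7 both genes reached that share. Among the 82 gaps covered to at least 50%, neither gene reached it in 52, and in 38 both genes were under 25%. The 12 gaps that lay wholly inside peaks between such genes include CCZ1-AGP2, VTS1-PDE2 and KIN82-MSH3. The same counts over all convergent gaps were not made, so whether genes beside touched gaps were covered more often than others is not shown. Of all bases in protein-coding genes without the left-out ORFs, 5.37% were inside peaks.

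Scores over convergent gaps, the authors' own value for each peak on a scale not given in the sources used here, were those of ordinary nuclear peaks. The 147 peaks that touched a convergent gap scored 23 at the median and were 325 bp wide, against 24 and 312.5 bp for the 1540 nuclear peaks that touched none. The commonest score of the list, 15, was the highest score over 44 of the 144 gaps (30.6%), beside 23.4% of touched tandem and 26.2% of touched divergent gaps. A score of 100 or more occurred over 7 gaps (4.86%), beside 3.78% of touched tandem and 8.93% of touched divergent gaps. Counted peak by peak, which is another unit, 26.7% of all nuclear peaks scored 15 and 3.32% scored 100 or more. Among the 5 highest were 173 over YER138W-A-RTR1, 165 over SEN34-YAR009C, 141 over OLE1-ERV14 and 118, shared by CYC1-UTR1 and ARE2-ATP23. Divided at the median nuclear score of 24, the 840 peaks under it covered 2.75% of convergent bases, beside 2.05% of tandem and 1.99% of divergent bases, and the 847 peaks at or above it 3.25%, 3.27% and 4.34%.

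**Figure D3:**
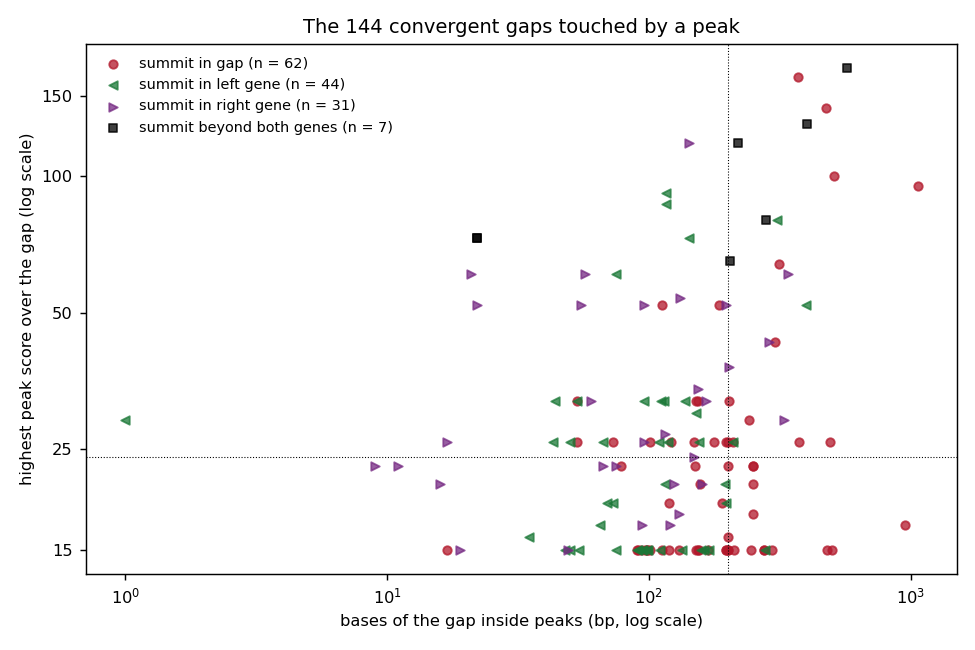
Bases of the gap inside peaks (bp, log scale) against the highest peak score over the gap (log scale) for the 144 touched convergent gaps, with symbols for the place of the summit and dotted lines at 200 bp and at the median nuclear score of 24. Scores of 15 occur over gaps with 17 to 501 bp inside peaks, and 7 gaps score 100 or more.

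Wide cover, meaning at least 200 bp and at least 50% of the gap inside peaks, was found in 30 convergent gaps (2.15%), against 3.16% of all gaps. Only gaps of 200 bp or more can meet this rule: among the 789 convergent gaps of that length the share was 3.80% (interval 2.58 to 5.38), and among all 4498 such gaps it was 3.80% too. Just outside the rule, SPO73-SAP1 and GCY1-PFY1 had 198 bp inside peaks each, and just inside it, YOS1-PTP3 and SAM1-VTA1 had 200 bp each. The 30 gaps were 204 to 1271 bp long, and 10 of them lay wholly inside peaks. The summit fell in the gap in 17 of the 30, in the left gene in 4, in the right gene in 4 and beyond both genes in 5. In 3 of the 30 the peak also touched a noncoding gene or a left-out ORF.

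**Figure D4:**
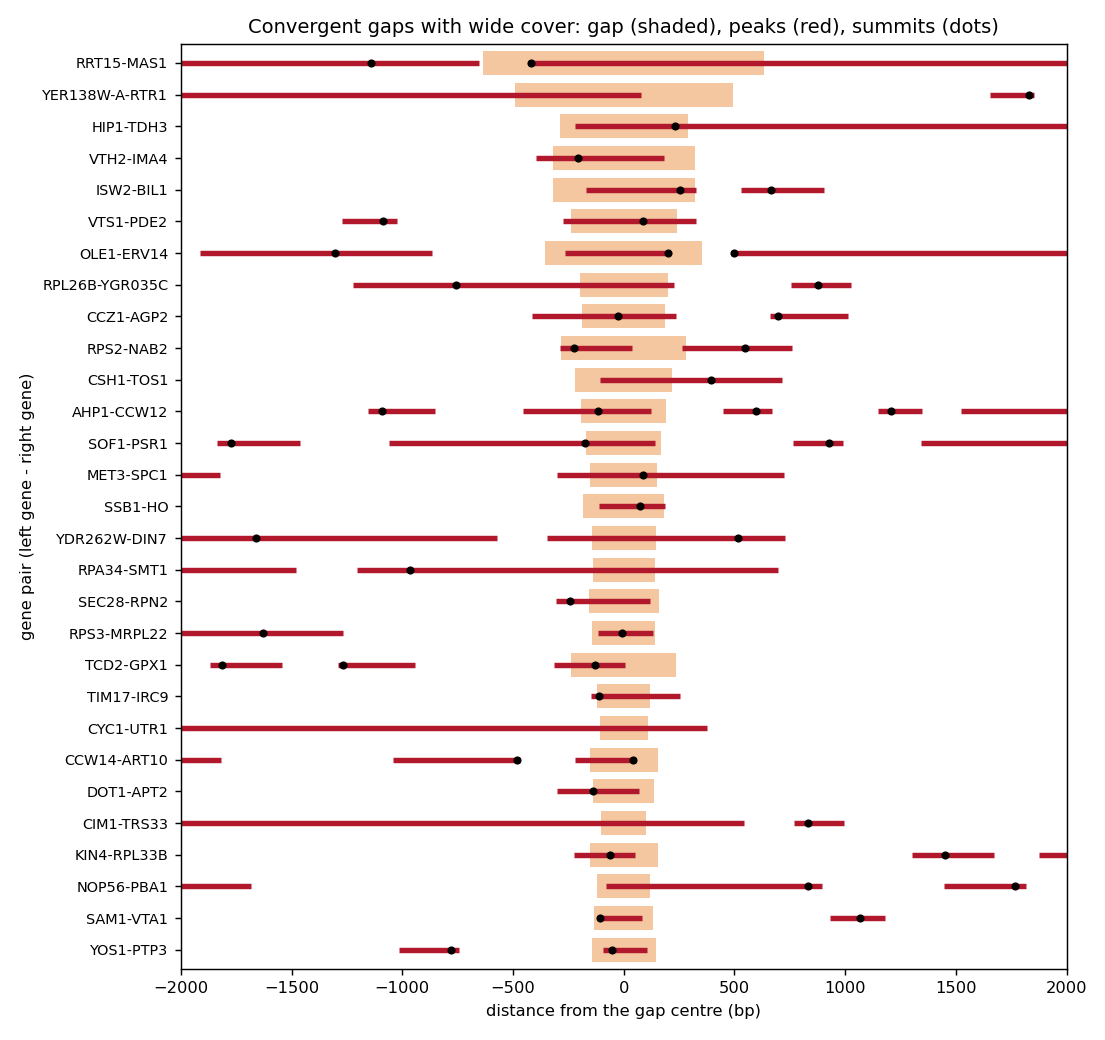
Of the 30 convergent gaps with wide cover, 29 are drawn, ordered by bases inside peaks and placed by distance from the gap centre (bp); shading marks the gap, red lines the peaks and dots their summits, cut off at 2000 bp on each side. Peaks such as those of VTS1-PDE2, CCZ1-AGP2 and RPS3-MRPL22 sit on the gap, while those of CYC1-UTR1 and CIM1-TRS33 pass over it from summits outside both genes.

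Several gaps were covered by peaks of several kb that ran on far into or past a neighbouring gene. The gap between RRT15 and MAS1, a subunit of the mitochondrial processing protease, had the most peak bases of any member, 1065 of 1271 bp (chromosome XII, 490595 to 491865, sacCer3; score 95). It lies beside the rDNA locus, and its peak of 3250 bp covered all of MAS1 and had its summit in the gap. The gap of YER138W-A and RTR1, a phosphatase that acts on RNA polymerase II (chromosome V, 449579 to 450562), was covered over 572 of 984 bp by a peak of 6675 bp that also lay on the left-out ORF YER138C, with its summit beyond both genes. Between CYC1, which encodes cytochrome c, and UTR1, an NAD kinase, all 219 bp (chromosome X, 526665 to 526883) lay in a peak of 3825 bp with a score of 118, which also touched a tRNA gene and whose summit was 2286 bp to the left of the gap centre. The whole of CYC1 and 16.8% of UTR1 were inside peaks. SEN34-YAR009C fell outside the rule for wide cover with 371 of 803 bp (46.2%). YAR009C is a Ty1 ORF under the 5000 bp limit, so the rule kept it as a gene, and it lay wholly inside a peak of 4750 bp whose summit was in the gap.

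A group of other wide gaps, put together after their values were seen, had peaks with scores of 64 to 141. The gap between HIP1, the histidine permease, and TDH3, a glycolytic dehydrogenase (chromosome VII, 882232 to 882811), had 511 of 580 bp inside a peak with a score of 100. That peak covered all of TDH3, and its summit, at 882751, lay in the gap past the end of TDH3. It did not reach HIP1, of which 4.47% was inside a separate peak. The strain carries a GPD promoter, whose source is the other end of TDH3, and whether reads of that construct add to this peak was not tested. Between OLE1, the fatty acid desaturase, and ERV14, a cargo receptor of COPII vesicles (chromosome VII, 400161 to 400870), a peak of 475 bp with a score of 141 lay within the gap, and separate peaks covered 66.7% of OLE1 and 68.8% of ERV14. AHP1, a thiol peroxidase, and CCW12, a cell wall mannoprotein, had 314 of 385 bp of their gap inside a peak (chromosome XII, 369312 to 369696; score 64), with 49.2% and 36.8% of the genes inside peaks. SOF1, a factor of small-subunit processing, and PSR1, a plasma membrane phosphatase, had 308 of 337 bp inside one (chromosome XII, 128993 to 129329; score 80), which covered 72.8% of SOF1 together with the other peaks there.

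A further set of wide gaps had peaks of low score that lay mostly on the gap. The peak between VTS1, an RNA-binding protein, and PDE2, a cAMP phosphodiesterase, covered all 480 bp (chromosome XV, 1012761 to 1013240) with a score of 15 and a summit 87.5 bp right of the centre. VTH2, a relative of the vacuolar sorting receptor, and IMA4, an isomaltase, had 501 of 642 bp covered (chromosome X, 16125 to 16766; score 15), while 1.59% of VTH2 and none of IMA4 was inside peaks. ISW2, a chromatin remodeller, and BIL1 had 494 of 643 bp covered (chromosome XV, 887877 to 888519; score 26). The gap of CCZ1, part of an exchange factor for a vacuolar GTPase, and AGP2, a plasma membrane transport regulator, lay wholly inside a peak of 650 bp (chromosome II, 499278 to 499651; score 26) whose summit was 26.5 bp from the centre. SSB1, a ribosome-bound Hsp70, and HO, the endonuclease of mating-type switching, had 295 of 364 bp covered (chromosome IV, 45907 to 46270; score 15), with 0% and 0.284% of the genes inside peaks.

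The remaining wide gaps among the 25 with most bases were alike in size. MET3, the ATP sulfurylase, and SPC1, a signal peptidase subunit, had all 302 bp covered, and so was all of SPC1 (chromosome X, 457775 to 458076; score 43). All 280 bp between RPA34, a subunit of RNA polymerase I, and SMT1 were covered (chromosome X, 141139 to 141418; score 80), as were the 289 bp of YDR262W-DIN7 (score 43) and the 241 bp of TIM17-IRC9 (score 29). CSH1 and TOS1 had 327 of 438 bp covered, SEC28, a subunit of the COPI coat, and RPN2, a proteasome subunit, 277 of 314 bp, and TCD2 and GPX1 245 of 474 bp. CCW14-ART10 had 210 of 308 bp covered, and DOT1, a histone methyltransferase, and APT2 209 of 275 bp.

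Most covered gaps, like most members, lay beside none of the genes in 7 lists of flanking genes. No listed gene flanked 1230 of all 1396 members, 114 of the 144 touched gaps and 66 of the 82 covered to at least 50%. Gaps with no listed gene were covered to at least 50% in 5.37% of cases, against 5.87% of all members. The lists, like the members, were drawn up with earlier results of these data known, so their counts are a description. Of 63 convergent gaps beside a ribosomal protein gene, 12 were touched (19.0%, interval 10.2 to 30.9) and 5 covered to at least 50%, beside 114 touched of 1230 gaps with no listed gene (9.27%, interval 7.71 to 11.0). Gaps beside ribosomal protein genes were longer, with a median of 308 bp against 214 bp, and had 11.6% of their bases inside peaks against 5.34%. The ribosomal protein gene itself was inside peaks to under 25% of its length in 7 of the 12 touched cases, with no peak base in 4. It was inside peaks to at least 50% in 3. RPS3, of the small subunit, and MRPL22, a mitochondrial ribosomal protein, had 250 of 283 bp of their gap covered (chromosome XIV, 303403 to 303685; score 23) by a peak whose summit was 6 bp from the gap centre, and no base of either gene was inside a peak. RPL25 and MDH2, the cytosolic malate dehydrogenase, were alike, with 250 of 596 bp of the gap (chromosome XV, 81191 to 81786; score 23) and none of the genes. RPS2 and NAB2, a poly(A)-binding protein of mRNA export, had 339 of 564 bp in 2 peaks (chromosome VII, 278382 to 278945), and RPS2 was 0.784% inside peaks. The peak with a score of 61 began at 278926, near the right end of the gap, and had its summit in NAB2. The peak over most of the covered bases scored 32. KIN4-RPL33B had 202 of 306 bp covered and no base of RPL33B inside peaks. The 3 genes inside peaks to at least 50% were RPL14A (79.1%), RPS25A (100%) and RPL26B. The whole length of RPL26B and all 399 bp of the gap to YGR035C (chromosome VII, 556673 to 557071) lay in a peak of 1450 bp with a score of 52.

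In the glycolysis and fermentation list, 5 of 11 gaps were touched (45.5%, interval 16.7 to 76.6) and 2 were covered to at least 50%. Here the listed gene was inside peaks to at least 50% in 4 of the 5 touched cases and to under 25% in none. Besides TDH3, these were CDC19, the pyruvate kinase, with all 137 bp of the gap to YAL037C-A (chromosome I, 73289 to 73425; score 32), FBA1, the aldolase, with 57 of 295 bp of BLI1-FBA1, and ADH1, the alcohol dehydrogenase, with 22 of 102 bp of MHF1-ADH1. TPI1, the triosephosphate isomerase, had 275 of 573 bp in a peak that lay within the gap to VMS1 (chromosome IV, 555153 to 555725; score 15), and 30.1% of TPI1 was inside other peaks. A covered gene did not always go with a covered gap. PGK1-POL4, ENO1-COQ6 and MHO1-TDH2 had no peak base in the gap, while PGK1 was 32.0%, ENO1 57.1% and TDH2 67.6% inside peaks. TDH2 and TDH3, and ENO1 and its paralog, have near-identical copies that could share reads, and so do many ribosomal protein genes.

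**Figure D5:**
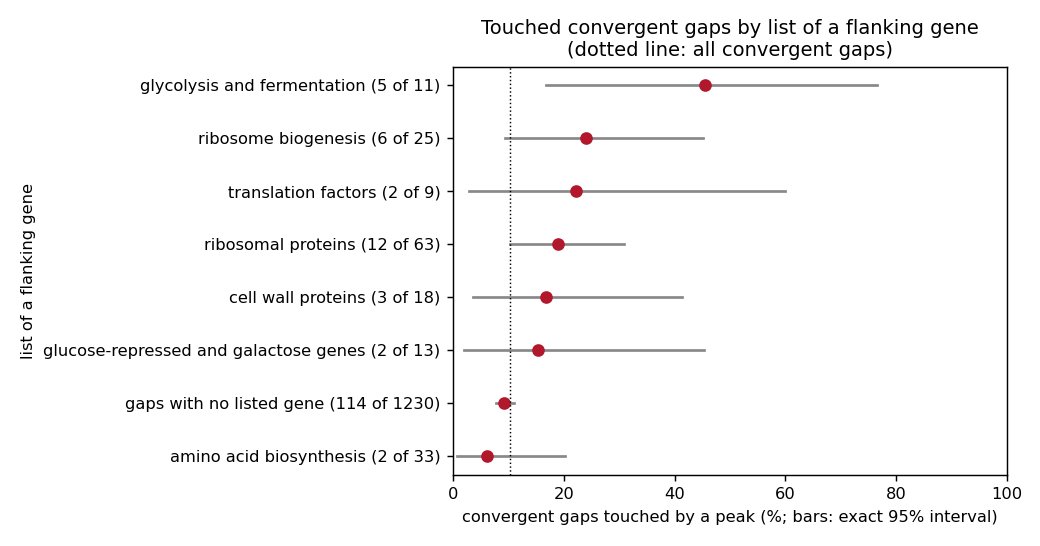
Share of convergent gaps touched by a peak (percent, with exact 95% intervals as bars) for gaps with a flanking gene in each list; the dotted line marks the 10.3% of all convergent gaps. The point estimates run from 6.06% for amino acid biosynthesis to 45.5% for glycolysis and fermentation, and the intervals of most lists are wide.

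Ribosome biogenesis genes flanked 25 gaps, of which 6 were touched (24%, interval 9.36 to 45.1) and 4 covered to at least 50%. The largest were NOP56, which belongs to snoRNA-protein particles, with PBA1 (202 of 241 bp; chromosome XII, 547612 to 547852; score 38), RRP12 with TAF3 (191 of 232 bp; score 19) and ERB1 with CSM3 (all 159 bp; score 21). NOP56 and RRP12 themselves had no peak base. Translation factors flanked 9 gaps, 2 of them touched: all 143 bp of TEF1-GRS2 (score 73), beside the elongation factor eEF1A, and 195 of 352 bp of ARG8-CDC33 (score 21), beside the cap-binding protein. Amino acid biosynthesis genes flanked 33 gaps and had 2 touched (6.06%, interval 0.743 to 20.2), MET3-SPC1 and ARG8-CDC33. Cell wall protein genes had 3 of 18 touched, of which GAS1-PSE1 had 118 of 269 bp covered. Glucose-repressed and galactose genes had 2 of 13, RPL25-MDH2 and 93 of 457 bp of GAL2-SRL2, and none covered to 50%.

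Fewer gaps were touched near chromosome ends than further in. The 5 longest gaps without a peak, wherever they lay, were FDC1-IRC4 (3530 bp, chromosome IV, 1513606 to 1517135), beside a decarboxylase of aromatic acids, SGE1-ARR1 (2482 bp), between a drug exporter and the regulator of arsenic resistance, PIR3-YKL162C (2251 bp), beside a cell wall protein, MAL13-MAL11 (2248 bp), a regulator and a transporter of maltose, and AGP3-AQY3 (2166 bp). Within 30 kb of a chromosome end, 4 of 83 convergent gaps were touched (4.82%, interval 1.33 to 11.9) and 3.04% of bases were inside peaks, although the median gap there was 544 bp long. Further in, 140 of 1313 were touched (10.7%, interval 9.04 to 12.5), with 6.54% of bases. By chromosome, touched gaps ran from 2 of 53 on IX (3.77%, interval 0.46 to 13.0) to 5 of 23 on I (21.7%, interval 7.46 to 43.7). On XII, 20 of 117 were touched (17.1%, interval 10.8 to 25.2). Differences by place and by chromosome were not tested. Chromosome I owed 950 of its 1517 peak bases in convergent gaps to the gap between YAL067W-A and SEO1, the longest touched gap (4527 bp).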

How the data were processed

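Of the series' 2 samples, only the immunoprecipitate's deposited peaks were analysed. The submitters' processing notes name SAMtools 1.7, MACS2 2.1.1.20160309 and build sacCer3. How reads were aligned, the peak threshold and how the input was treated: not given in the sources used here. Each deposited peak carries a score, a whole number from 13 to 679 in the nucleus, which served only to describe and rank peaks. Starts were converted to 1-based positions, and summits come from the deposited summit offset. All 1687 nuclear peak starts are multiples of 25 bp before that conversion. Genes came from the RefSeq table of assembly R64, and strands from systematic names. Gaps are between coding frames and so include untranslated regions. Cover was counted in Python 3.11.15 with numpy 2.4.6, pandas 2.3.3 and scipy 1.17.1, and the code was tested on simulated peaks. Members, the 7 gene lists and the alternatives were chosen with earlier results of these data known. Pairs named by rule were the 25 widest-covered gaps among those with wide cover, the 5 of highest score, the 5 longest without a peak, up to 3 per list and those at the 50 bp limit; other pairs were chosen after their values were seen. The values of 1 pair are not reported here. No test was made, since there is 1 library. No sequence is printed, as none was used here.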

Additional observations from a re-analysis of the deposited data

How the results depend on the processing

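With the 847 peaks at or above the median score, 3.25% of convergent bases were inside peaks, 47 gaps were covered to at least 50% and 71 touched, and the share of bases was 0.748 times the divergent and 0.993 times the tandem one, so the order against tandem gaps (1.13) turned. With the 840 peaks under it the values were 2.75%, 35, 73, 1.38 and 1.34, with 10 gaps wholly covered. Against divergent gaps (0.947) the order turned in that and in 6 other settings: 1.16 with 200 bp around each summit, 2.43 with gaps that hold a noncoding gene or long ORF kept in, 1.09 without the 30 kb ends and the rDNA region, 1.01 with unnamed ORFs not counted as genes, 1.06 without peaks at tRNA genes or long ORFs, and 1.16 without peaks at any noncoding gene or long ORF, a setting chosen after seeing the data. Against tandem gaps these gave 1.17, 1.94, 1.1, 1.05, 1.13 and 1.16, and the share of convergent bases was 3.05%, 21.7%, 6.27%, 4.77%, 5.7% and 5.7%. The convergent share of bases is therefore above the tandem one in all settings but 1. No order against divergent gaps holds across these settings, none of which reweights by gap length. Reweighted to the length classes of convergent gaps, the share of bases was 4.25% for divergent gaps, beside 6.0% for convergent ones. The cause of the turns in order was not tested. A minimum length of 1 bp gave ratios of 0.944 (divergent) and 1.12 (tandem), and one of 200 bp gave 0.944 and 1.14, with 45 gaps covered to at least 50% and 10 wholly covered of the fewer gaps counted. Requiring 90% of the gap gave 35 gaps and any overlap 144. Around the summits, 34 gaps were covered to at least 50% and 4 wholly. Of the 62 values under an alternative, 24 stayed within limits that differed by kind of value. Counts were allowed to change by a factor, while ratios had to be equal after rounding. Shares of bases had to lie in an interval that takes bases as independent. The count of 24 is therefore not a measure of how stable the results are. The gene table has no strand column, so that alternative was not run. Depth is unknown, and cover by low-scoring peaks cannot be weighed against it. No paired analysis was possible because the values come from 1 peak list.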

Other observations

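The 80 convergent gaps kept out of the members for what they hold differed among themselves. All 20 that held a left-out long ORF were touched, and 76.5% of their bases were inside peaks. Of 41 with a tRNA gene and no such ORF, 31 were touched (75.6%, exact 95% interval 59.7 to 87.6) with 27.2% of bases inside peaks. Of 12 with a snoRNA gene, 6 were touched, with 33.1% of bases, and of 7 with another noncoding gene, 2 were, with 17.7%. These gaps were longer than the members, with a median of 1467 bp.

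Gaps with an unnamed ORF on a side were also counted apart. Of 1193 gaps between named genes, 121 were touched (10.1%, interval 8.49 to 12), of 188 with 1 unnamed ORF, 22 (11.7%, interval 7.48 to 17.2), and of 15 between unnamed ORFs, 1, which was YDL086W-YDL085C-A, with 116 of 229 bp inside a peak of score 92. Cover of at least 50% was found in 74 of the 1193 gaps (6.2%, interval 4.9 to 7.72) and in 7 of the 188 (3.72%, interval 1.51 to 7.52), and the difference was not tested.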
